A study of Mus musculus with 12 samples.

Results

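Oxidative phosphorylation is the subject here, represented by the nuclear genes for the respiratory chain complexes I to IV and for ATP synthase, also called complex V. Members were the genes whose single array symbol began with Nduf, Uqcr or Atp5, was Sdha, Sdhb, Sdhc or Sdhd, or was Cox followed by a digit from 4 to 8. The rule used names only, no measured value, and found 84 genes among the 12394 with a single symbol on the array. They comprised 38 genes of complex I, 4 of complex II, 8 of complex III, 17 of complex IV and 17 of ATP synthase. Of the complex I genes, 5 encode assembly factors (the Ndufaf genes) that do not stay in the finished enzyme. Of the complex IV genes, 6 encode isoforms known mainly from other tissues, and Cox7a2l encodes a factor that joins complexes III and IV. Ndufa4, named for complex I, was counted with complex IV, where its protein is now placed.

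RNA of the mouse hippocampal CA1 subfield was measured on 12 Affymetrix arrays, each carrying tissue pooled from 2 brains. Wild-type and SUMO-KD mice each underwent either sham surgery or 10 minutes of global forebrain ischemia followed by 3 hours of reperfusion, the time at which tissue was taken, and each of the 4 groups had 3 arrays. SUMO-KD mice carry a knockdown of SUMO, the small ubiquitin-like modifier that is attached to other proteins. For the promoter of the knockdown and for age and strain, nothing is given in the labels. By its design the study asked what ischemia does to CA1 gene expression, and if that depends on SUMO.

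In oxidative phosphorylation, electrons from NADH enter at complex I and those from succinate enter at complex II. Both pass through ubiquinone and complex III to cytochrome c, and complex IV hands them to oxygen. Complexes I, III and IV pump protons across the inner mitochondrial membrane, and ATP synthase uses the returning protons to make ATP. Most subunits are encoded in the nucleus and imported, while a core set is encoded by mitochondrial DNA and is no member here. Neurons depend heavily on this pathway, and CA1 pyramidal neurons are known to die days after a brief forebrain ischemia.

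Each value is a linear array intensity, and a change is a difference of group means of log2(intensity + 32), so it is a log2 fold change that is slightly compressed for dim genes. A gene was called higher or lower when its Benjamini-Hochberg adjusted p over all 12394 genes, from limma's moderated test, was under 0.05. The labels name the arrays of a group as biological replicates, so p-values measure the spread between these pools. In pooled tissue, fewer cells of a type and less RNA per cell cannot be told apart.

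Sumo3 was lower in SUMO-KD, at 1337 to 1689 in its sham arrays against 2247 to 2467 in wild-type sham arrays (log2 difference -0.58, limma adjusted p = 0.0096). The 5′ control probe set of 18S ribosomal RNA read 1275 to 1660 on 5 of the ischemia arrays, 4127 on SUMO-KD ischemia replicate 2, and 4194 to 6528 on all sham arrays. Of 10 listed markers of CA1 pyramidal neurons, 6 were measured. Their summed intensity was 9107 to 12142 in wild-type sham arrays and 4532 to 6943 after ischemia; in SUMO-KD it was 4359 to 7096 in sham arrays and 4147 to 6079 after ischemia. No measured marker was at 0 in all arrays of a group, but the probe set for Camk2a was dim, with a mean of 59.4 in wild-type sham. Sham replicate 2 stood slightly below its group in members of both genotypes, with 64 of 84 members below the mean of their sham group in wild-type and 73 in SUMO-KD.

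In wild-type CA1, 15 of the 84 genes fell after ischemia and 1, Cox7c, rose. The 16 called members made 19% of the list, against 18.5% of all genes tested, so the share called was near the background. The direction was uneven: 17.9% of members were called lower against 8.88% of all genes, and 1.19% were called higher against 9.59%. The changes were small, with a median of -0.18 over the 84 members and -0.04 over all genes, and 76 members had a negative difference. All 3 ischemia arrays lay below all 3 sham arrays for 45 members (53.6%; all genes, 19.5%), and above them for 2 members (all genes, 15.6%). After a quantile normalization, which gives all arrays 1 distribution, those counts were 40 (all genes, 22.2%) and 3 (all genes, 15%). The background held dimmer genes: a filter for dim genes kept all 84 members but only 9482 of all genes. The 95th percentile of intensity was 2972 to 3086 on wild-type sham arrays and 2847 to 2947 on wild-type ischemia arrays. The 99th percentiles overlapped, at 7540 to 8154 and 7617 to 7669. Here and below, whether genes of like brightness share the uneven direction was not tested.

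The number of called members moved with single arrays, although the direction of the list did not. Of the wild-type arrays, leaving out sham replicate 1 gave 6 called members, sham replicate 3 gave 7, ischemia replicates 1 and 3 gave 6 each, and ischemia replicate 2 gave 10. The median change over members stayed between -0.23 and -0.17 under the 12 omissions of 1 array. Only omissions of wild-type arrays could move it. Omitting an array of 1 genotype leaves the ischemia differences of the other genotype unchanged. It acts on their calls only through the shared estimate of spread. Sdhd, Uqcr11, Ndufb3, Ndufs7 and Ndufaf7 were called lower in wild-type under each of those 12 omissions.

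**Figure D1:**
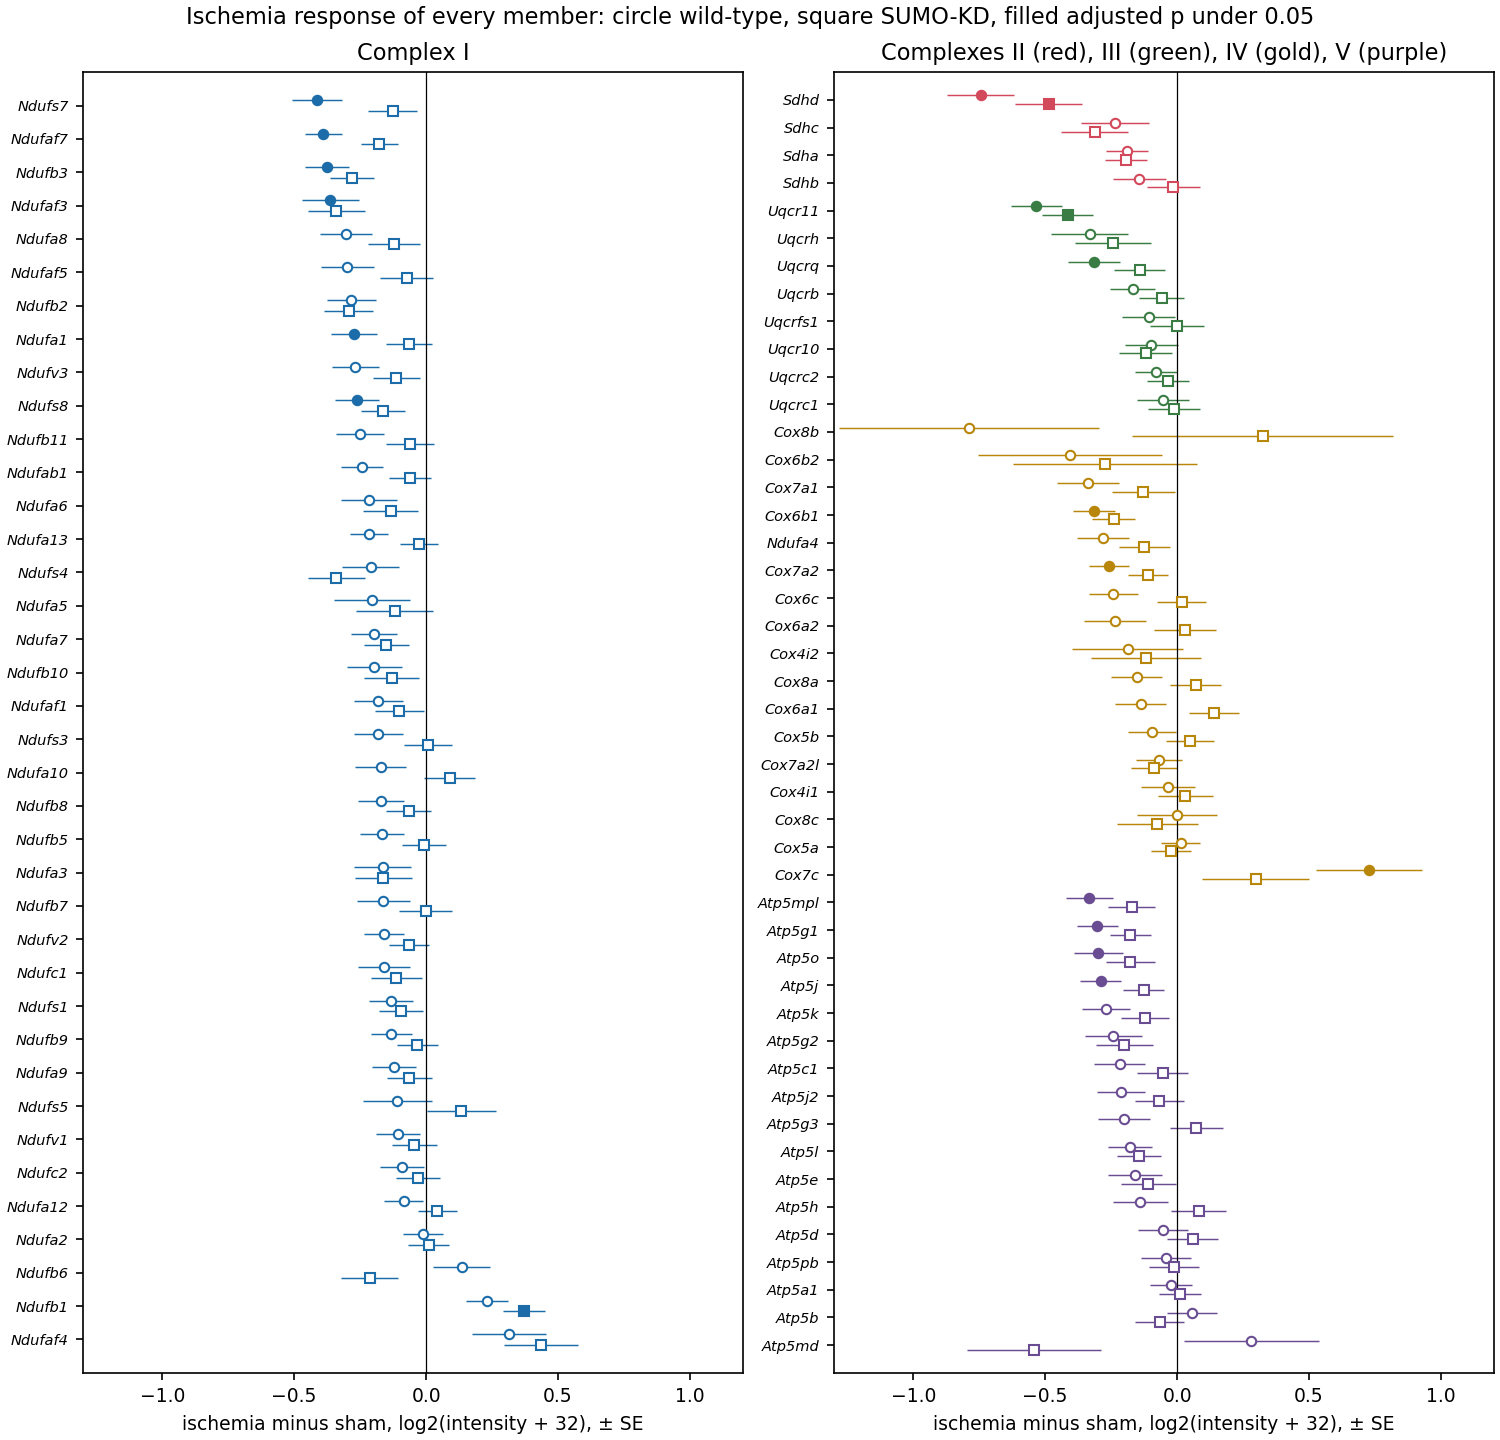
Ischemia minus sham for each of the 84 members (horizontal axis, difference of mean log2(intensity + 32), bars are standard errors), with complex I on the left and complexes II to V on the right. Circles are wild-type, squares SUMO-KD, and filled symbols have a limma adjusted p under 0.05. Most circles lie left of 0 and Sdhd lies farthest left among filled symbols, while Cox7c and Ndufb1 have filled symbols to the right.

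The largest called fall was in complex II, the succinate dehydrogenase that also serves the citric acid cycle. Sdhd encodes one of the 2 subunits that anchor the enzyme in the inner membrane, Sdhc encoding the other. In wild-type its intensity was 1909, 1794 and 1960 after sham surgery and 913, 1118 and 1348 after ischemia. The groups did not overlap, and the mean fell by 40.3%, from 1888 ± 85.1 to 1126 ± 218 (SD, n = 3 arrays). The log2 change was -0.75 (SE 0.13, limma adjusted p = 0.00209). Sdhc and Sdha, the flavoprotein that oxidises succinate, had wild-type differences of -0.24 and -0.19 that did not pass (limma adjusted p = 0.24 and 0.131), with 1 Sdhc ischemia array, at 827, inside its sham range of 788 to 1022. A second, dim probe set for Sdhd differed by -0.11 and did not pass (limma adjusted p = 0.86).

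In complex III, 2 of 8 members were called lower and none higher, and all 8 differences were negative. Uqcr11, a small accessory subunit, read 3960, 3751 and 3981 in wild-type sham and 2661, 2811 and 2579 in wild-type ischemia. Every ischemia array was well below every sham array, a fall of 31.1% in the mean (log2 change -0.53, SE 0.10, limma adjusted p = 0.00318). Uqcrq, which encodes another small subunit close to the cytochrome b core, went from 2849, 2460 and 2817 to 2112, 2370 and 2033 (log2 change -0.31, limma adjusted p = 0.044). Its groups were separate by a narrow gap, and the call was lost under 8 of the 12 omissions, with a highest adjusted p of 0.14. The core subunits Uqcrc1, Uqcrc2 and Uqcrfs1, the last being the iron-sulfur protein, were not among the called genes.

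Complex I had 6 called falls among 38 members and no called rise in wild-type, with a median change of -0.18. Of 6 measured core subunits, which together, though not each of them, carry the flavin and the iron-sulfur clusters, 2 fell. Ndufs7 holds the last cluster before ubiquinone; its wild-type intensities were 2657, 2718 and 3127 in sham and 2278, 2085 and 1985 in ischemia. The groups did not overlap, and the change was -0.41 (SE 0.09, limma adjusted p = 0.0108). Its second probe set gave nearly the same difference, -0.42. Ndufs8, another iron-sulfur subunit, went from 3556, 3321 and 3432 to 2823, 2970 and 2793, again without overlap, but its change of -0.26 passed by the narrowest margin of all members and was called in 2 of the 12 omissions.

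Among the 27 accessory subunits of complex I, which surround the core, Ndufb3 and Ndufa1 were called lower. Ndufb3 lies in the membrane arm and read 3559, 3211 and 3492 in wild-type sham against 2693, 2674 and 2508 in ischemia. The ischemia arrays sat together below all sham arrays (log2 change -0.38, SE 0.08, limma adjusted p = 0.00932). Ndufa1, needed for assembly of the membrane arm, went from 9245, 8227 and 8773 to 6672, 7532 and 7507 (log2 change -0.27, limma adjusted p = 0.0493). That call held in only 1 of the 12 omissions, with a highest adjusted p of 0.165.

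The assembly factors of complex I divided. Ndufaf7, a methyltransferase that modifies a core subunit early in assembly, had the smallest standard error of the called members, with 490, 494 and 499 in wild-type sham and 383, 367 and 360 in ischemia. No array crossed between the groups (log2 change -0.39, SE 0.07, limma adjusted p = 0.00284). Ndufaf3, which acts in the same early assembly step as Ndufaf4, went from 1002, 862 and 1064 to 720, 755 and 772 (log2 change -0.36, limma adjusted p = 0.0365), and lost the call under 5 omissions (highest adjusted p 0.129). Ndufaf4 itself read 809, 771 and 983 in sham and 1249, 878 and 1100 in ischemia, with overlapping groups and a difference of 0.31 that did not pass (limma adjusted p = 0.147). A second probe set for Ndufaf4 differed by -0.11, so the probe sets did not share a sign.

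In complex IV, cytochrome c oxidase, 2 of 17 members were lower in wild-type ischemia and 1 was higher. Cox6b1, which faces the intermembrane space where cytochrome c docks, read 8996, 9194 and 8873 in sham and 7162, 7625 and 6963 in ischemia. Cox7a2, a small transmembrane subunit, read 11847, 11541 and 11776 in sham and 9567, 10068 and 9770 in ischemia. Both pairs of groups were clearly separate, with changes of -0.31 and -0.26 (limma adjusted p = 0.0198 and 0.0357), and a second probe set of each gene was also called lower when tested by itself. The calls were lost under 4 omissions for Cox6b1 and 8 for Cox7a2, with highest adjusted p of 0.0638 and 0.103. Ndufa4 read 8372, 7486 and 8507 in sham and 6265, 6762 and 7020 in ischemia, without overlap, but its difference of -0.28 did not pass (limma adjusted p = 0.0717).

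Cox7c, another small subunit, was the exception in direction. Its wild-type intensities were 177, 153 and 185 in sham and 226, 288 and 428 in ischemia. All ischemia arrays were above the sham arrays, but they spread widely (log2 change 0.73, SE 0.20, limma adjusted p = 0.0278), and the call was lost under 5 omissions with a highest adjusted p of 0.0889. The probe set used was dim and is marked as matching several transcripts; the other Cox7c probe set, dimmer still at a mean of 32.7 in wild-type sham, differed by 0.38 and did not pass (limma adjusted p = 0.195).

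For ATP synthase, 4 of 17 members were called lower and none higher in wild-type, and limma called none of the 5 members of the catalytic F1 head (1 had an unadjusted p under 0.05). Atp5g1 is one of 3 genes that encode the same mature c-ring protein, the rotor turned by protons. It went from 2482, 2483 and 2388 to 1861, 2000 and 2090 (log2 change -0.30, limma adjusted p = 0.0209). The c-ring paralogues Atp5g2 and Atp5g3 differed by -0.24 and -0.20 and did not pass (limma adjusted p = 0.149 and 0.189). Atp5g3 ischemia values of 7730, 8556 and 9477 reached into the sham values of 10042, 9371 and 10168.

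The other ATP synthase genes that fell belong to the stalk and the membrane part. Atp5j and Atp5o encode the F6 and OSCP subunits of the peripheral stalk, which keeps the head from turning. Atp5j went from 5011, 5198 and 5552 to 4366, 4286 and 4213, and Atp5o from 4180, 4041 and 4269 to 3245, 3553 and 3345. Neither pair of groups overlapped, with changes of -0.29 and -0.30 (limma adjusted p = 0.0239 and 0.0463). Atp5mpl, a small membrane subunit, went from 3543, 3380 and 3351 to 2546, 2991 and 2619 (log2 change -0.33, limma adjusted p = 0.0239). The calls of Atp5g1, Atp5j, Atp5mpl and Atp5o were lost under 3, 4, 4 and 9 of the 12 omissions, with highest adjusted p of 0.08, 0.089, 0.0867 and 0.131.

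**Figure D2:**
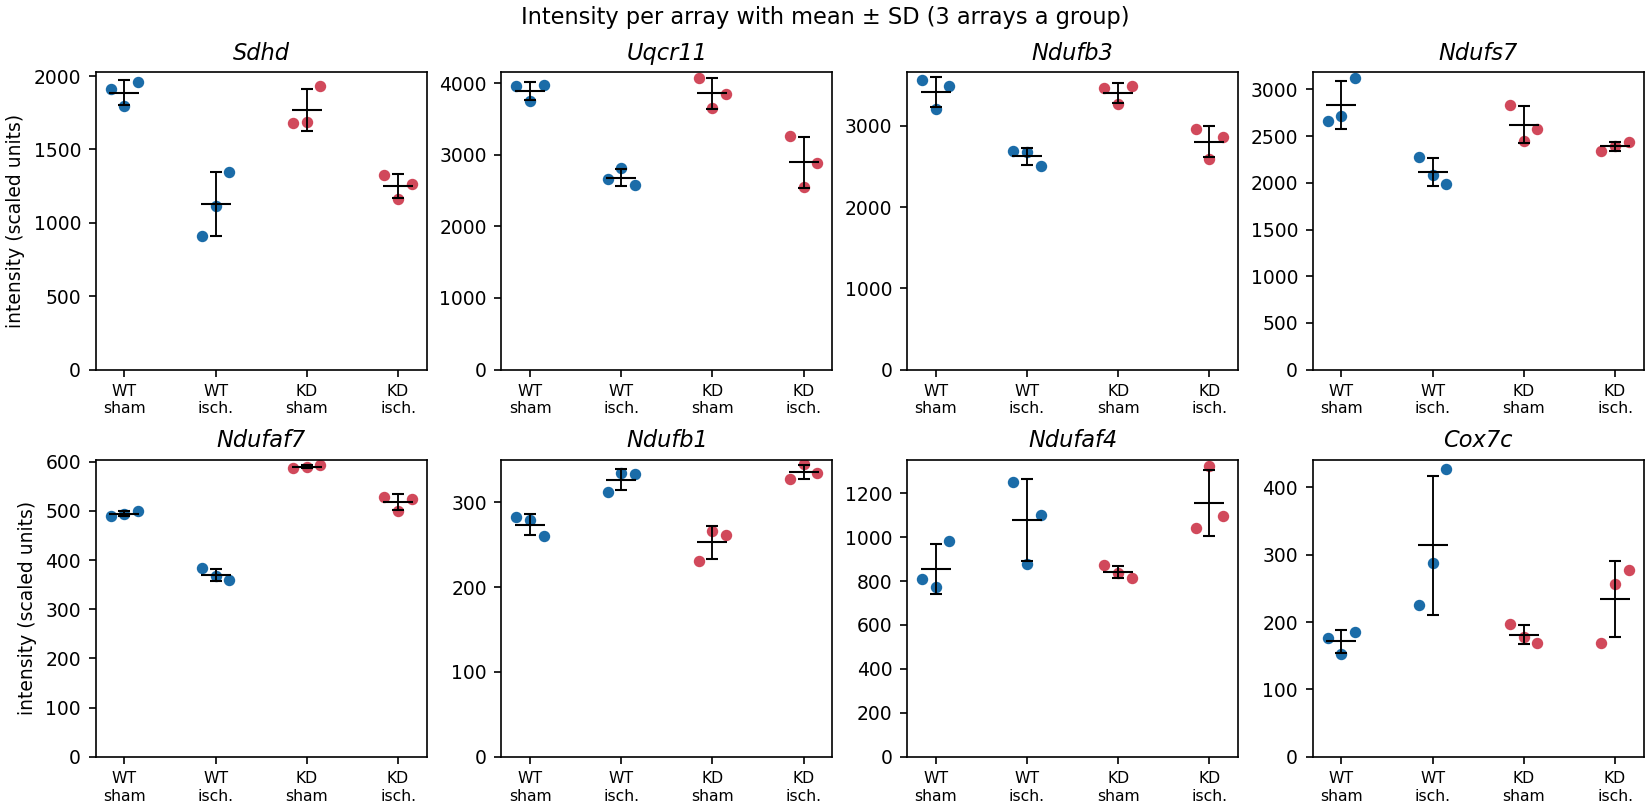
Linear intensity (vertical axis, from 0) of 8 members on each array, blue for wild-type (WT) and red for SUMO-KD (KD), with mean ± SD as black marks (3 arrays a group). Sdhd, Uqcr11, Ndufb3, Ndufs7 and Ndufaf7 are lower in wild-type ischemia than in wild-type sham on every array; Ndufb1 and Cox7c are higher on every array, and Ndufaf4 overlaps.

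In SUMO-KD mice, 2 members fell and 1 rose after ischemia, which is 3.57% of the members against 10.7% of all genes called in that comparison (4.62% lower and 6.08% higher). Sdhd read 1680, 1687 and 1932 in SUMO-KD sham and 1327, 1161 and 1266 in SUMO-KD ischemia (log2 change -0.49, SE 0.13, limma adjusted p = 0.0317). Uqcr11 read 4079, 3657 and 3845 in sham and 3260, 2545 and 2892 in ischemia (log2 change -0.41, SE 0.10, limma adjusted p = 0.0194). Both were thus lower on every ischemia array in each genotype. Ndufb1, a small accessory subunit of the membrane arm of complex I, rose from 230, 266 and 262 to 327, 345 and 335, without overlap (log2 change 0.37, SE 0.08, limma adjusted p = 0.013). In wild-type the same gene read 283, 279 and 260 in sham and 313, 334 and 334 in ischemia, a difference of 0.23 with limma adjusted p = 0.0685.

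Over the list, the SUMO-KD change had a median of -0.07 (all genes, -0.02), and 65 of 84 members were negative. In 15 members all ischemia arrays lay below all sham arrays (17.9%; all genes, 15.9%), and 3 had them above (all genes, 13.9%). After quantile normalization 22 members were separate in the lower direction (all genes, 17.5%) and 3 in the higher (all genes, 13.2%). The same step moved the median change to -0.09 in SUMO-KD (all genes, -0.04) and to -0.15 in wild-type (all genes, -0.05). The medians of both genotypes thus lay closer together than without it. All 15 members that fell in wild-type were also negative in SUMO-KD. The SUMO-KD calls rested on few arrays: limma called no member without SUMO-KD sham replicate 1 or without SUMO-KD ischemia replicate 2, the array with the high 18S control, and 1 member without sham replicate 3 or without ischemia replicate 3. Without ischemia replicate 1 there were 5. In the fit of all arrays, 13 members had an unadjusted p under 0.05 in this comparison. Without ischemia replicate 2 the median change was -0.06, and without sham replicate 2 it was -0.11.

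**Figure D3:**
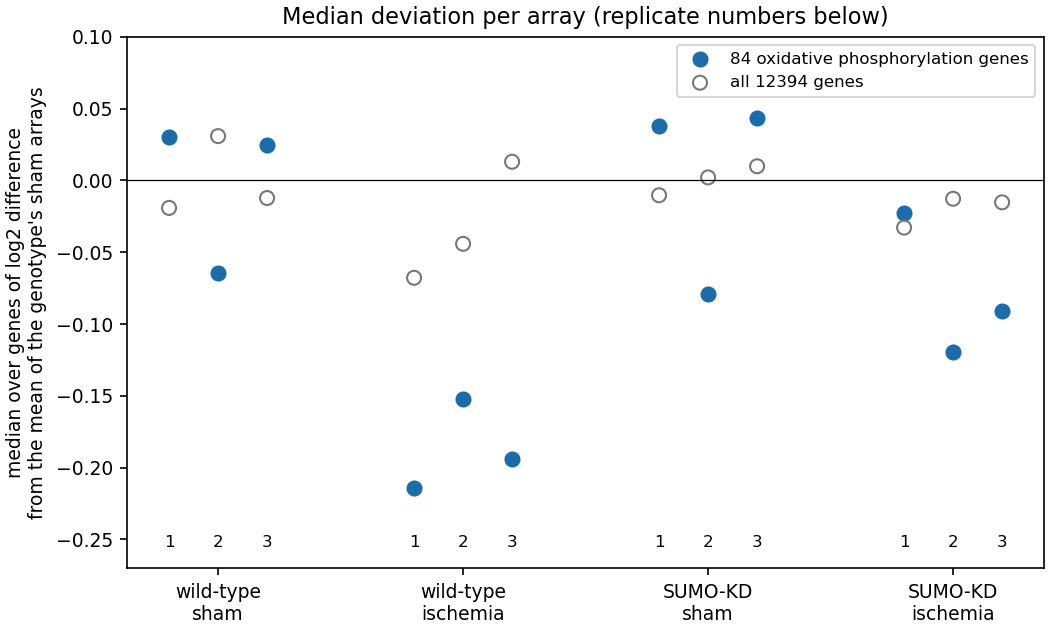
Median over genes of the log2 difference from the mean of the sham arrays of the same genotype (vertical axis), for each array by group, with replicate numbers along the bottom. Filled points are the 84 members and open points all 12394 genes. The wild-type ischemia arrays lie at -0.21, -0.15 and -0.19 for members, and the SUMO-KD ischemia arrays at -0.02, -0.12 and -0.09.

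In sham mice, genotype did not separate the members. No member was called by limma between SUMO-KD and wild-type sham, where 2.1% of all genes were called, and 3 members had an unadjusted p under 0.05. The median difference was -0.01 for members and for all genes. Groups without overlap were seen for 2 members in the lower and 6 in the higher direction (all genes, 9.67% and 11%), and after quantile normalization for 4 and 11 (all genes, 10.5% and 10.9%). In the same comparison, 2 of 6 measured CA1 pyramidal markers were called lower in SUMO-KD (Wfs1 by -0.87 and Man1a by -0.85). All 6 were negative, each with an unadjusted p under 0.05 in limma, and their median was -0.87. Calb1, listed as a marker of dentate granule cells, was called higher by 0.61, and 2 of 7 astrocyte markers were also called higher. All 5 measured dentate granule markers were positive, with a median of 0.45. The part of these marker differences in the members' values was not tested.

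After ischemia, the members tended to be higher in SUMO-KD than in wild-type. The median difference was 0.10 over members and -0.00 over all genes, 70 members were positive, and in 28 members all SUMO-KD arrays lay above all wild-type arrays (33.3%; all genes, 11.3%), with none in the other direction (all genes, 8.9%). After quantile normalization 23 members lay higher without overlap (all genes, 11.4%) and 0 lower (all genes, 8.58%). Members are not independent replicates, as each group has 3 arrays. The members' median deviation from the wild-type sham mean was -0.01, -0.13 and -0.07 on SUMO-KD ischemia arrays. On wild-type ischemia arrays it was -0.21, -0.15 and -0.19. The median difference was 0.07 without SUMO-KD ischemia replicate 1 and 0.13 without replicate 2. Only 1 member, Ndufaf7, was called, which is 1.19% against 1.56% of all genes (1% higher and 0.557% lower). Ndufaf7 read 529, 499 and 525 in SUMO-KD ischemia and 383, 367 and 360 in wild-type ischemia, a gap far wider than the spread (log2 difference 0.45, SE 0.07, limma adjusted p = 0.00982). The sham arrays also stood apart, with 586, 589 and 593 in SUMO-KD against 490, 494 and 499 in wild-type, a difference of 0.24 that did not pass. The call after ischemia was lost without SUMO-KD ischemia replicate 3 (adjusted p = 0.0535).

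The interaction asks whether the response to ischemia itself differed between genotypes. No member passed in limma, 2 had an unadjusted p under 0.05, and 0.0161% of all genes were called. The wild-type response was below the SUMO-KD response in 72 of 84 members (85.7%; all genes, 52.2%), with a median difference of 0.11 between responses (all genes, 0.01). Across the 84 members the responses of both genotypes had a Pearson r of 0.43, against 0.78 across all genes; genes are not independent replicates, and the narrow range of the members' changes limits r. The smallest interaction p belonged to Atp5md, a small membrane subunit of ATP synthase.

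Atp5md varied widely between arrays of a group. Its wild-type arrays read 5676, 5176 and 3563 in sham and 5356, 7473 and 4718 in ischemia, and its SUMO-KD arrays 4878, 6385 and 7568 in sham and 4624, 5360 and 3063 in ischemia. The groups overlapped in both genotypes, and the difference of the responses was -0.82 (SE 0.36, limma adjusted p = 0.796). Ndufb6, an accessory subunit of complex I, followed with -0.35 (limma adjusted p = 0.796); its second probe set did not share the direction of either response. Ndufs7 came next with 0.29 (limma adjusted p = 0.807): in SUMO-KD it went from 2837, 2448 and 2574 to 2340, 2399 and 2438, a difference of -0.13 that did not pass.

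**Figure D4:**
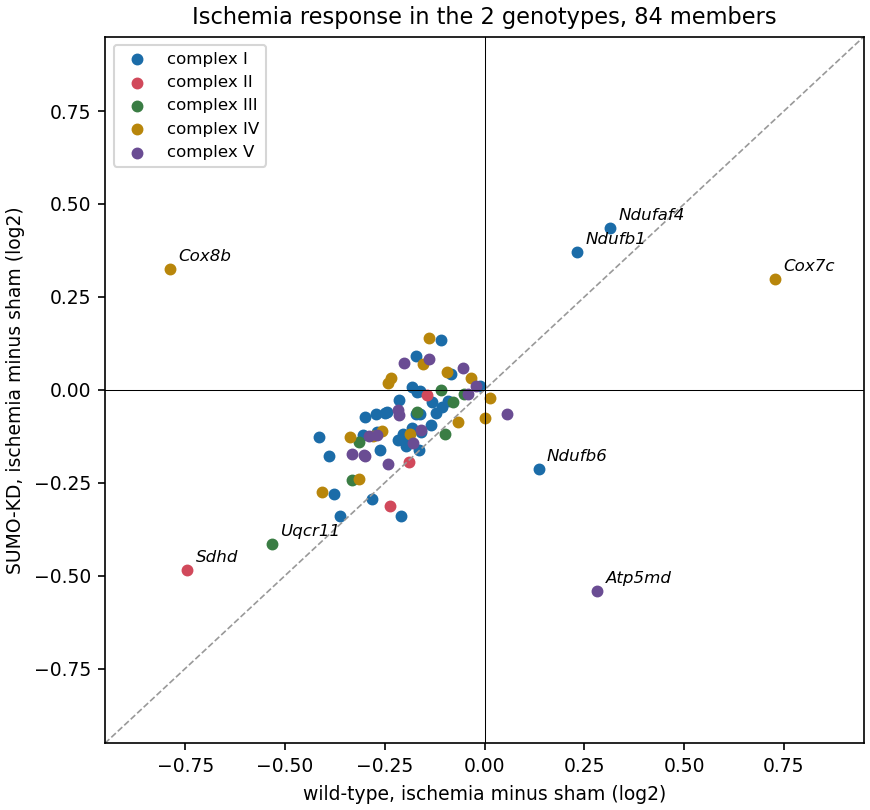
Ischemia minus sham in wild-type (horizontal axis) against SUMO-KD (vertical axis), log2 difference, 1 point for each of the 84 members, coloured by complex; the dashed line marks equal responses. 72 points lie above the line, and Sdhd and Uqcr11 stand apart at the lower left.

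The mean ischemia response averages both genotypes and so uses 6 arrays a side. It called 24 members, 28.6% of the list against 26.7% of all genes, of which 21 fell (25%; all genes, 14%) and 3 rose (3.57%; all genes, 12.8%). By complex the falls were 9 of 38 in complex I, 3 of 4 in complex II, 2 of 8 in complex III, 2 of 17 in complex IV and 5 of 17 in ATP synthase. Sdhd, at -0.62 (limma adjusted p = 0.000435), and Uqcr11, at -0.47 (limma adjusted p = 0.000426), had the largest called falls. The median over members was -0.14 (all genes, -0.03). Without SUMO-KD ischemia replicate 2 there were 14 called members, 12 lower and 2 higher.

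Members that fell in this average without a wild-type call included 2 partners of Sdhd in complex II. Sdha changed by -0.19 (limma adjusted p = 0.0275) and Sdhc by -0.27 (limma adjusted p = 0.0432), and without SUMO-KD ischemia replicate 2 those adjusted p were at their highest, 0.0672 and 0.104. Ndufb2, an accessory subunit of complex I, changed by -0.29 (limma adjusted p = 0.00715), and its sham and ischemia arrays did not overlap in either genotype. Ndufs4, an accessory subunit whose loss causes a mitochondrial encephalopathy, went from 1213, 1067 and 1363 to 1088, 1039 and 997 in wild-type and from 1520, 1394 and 1430 to 1193, 999 and 1232 in SUMO-KD. Its mean response was -0.28 (limma adjusted p = 0.0203), with overlap in wild-type and none in SUMO-KD. A second Ndufs4 probe set was called lower in wild-type when tested by itself (-0.66, limma adjusted p = 0.0081).

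The 3 members that rose in the average were Ndufb1 (0.30, limma adjusted p = 0.00234), Ndufaf4 (0.37, limma adjusted p = 0.0152) and Cox7c (0.51, limma adjusted p = 0.0203). Ndufaf4 in SUMO-KD went from 872, 837 and 814 to 1044, 1324 and 1094, without overlap. The Cox7c call was lost without SUMO-KD ischemia replicate 2 or 3 (highest adjusted p 0.0519). Those of Ndufb1 and Ndufaf4 held under all 12 omissions, as did 12 of the falls: Sdhd, Uqcr11, Ndufaf7, Ndufb3, Cox6b1, Ndufaf3, Ndufb2, Atp5g1, Ndufs7, Atp5mpl, Atp5j and Ndufs4.

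Isoform pairs of complex IV allowed each ubiquitous subunit to be set beside its counterpart from other tissues. None of the 6 tissue isoforms was called by limma in any comparison, and with ischemia in wild-type 1 had an unadjusted p under 0.05. Cox4i2, an isoform known from lung, was near the low end of the arrays, from 12.3 to 57.4. Cox4i1, the ubiquitous form and a docking subunit, read 10566, 8760 and 10769 in wild-type sham and 10111, 9900 and 9281 in wild-type ischemia, with overlap and a difference of -0.03 (SE 0.10). Cox6a1, the non-muscle form, differed by -0.14 in wild-type and 0.14 in SUMO-KD, and its muscle counterpart Cox6a2 by -0.23 and 0.03, none of which passed. Cox6b2, the testis form of Cox6b1, ran from 84.7 to 315 in wild-type ischemia alone, so its difference of -0.41 (SE 0.35) lay within the spread.

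Cox7a1, the heart and muscle form of the Cox7a subunit, read 69.7, 82 and 88.1 in wild-type sham and 47.5, 65.8 and 56.6 in wild-type ischemia, a difference of -0.34 without overlap that did not pass (limma adjusted p = 0.0698). Its ubiquitous counterpart Cox7a2 fell as given above, and Cox7a2l differed by -0.07 (SE 0.09). Cox8a, Cox8b and Cox8c, isoforms of the smallest subunit, differed by -0.15, -0.79 and 0.00 in wild-type. The Cox8b value came with intensities of 24.8, 99 and 179 across the wild-type ischemia arrays (SE 0.49) and did not pass.

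Nuclear genes of this pathway are known targets of the transcription factors NRF1, GABP (an ETS factor) and YY1, whose motifs are common near their starts. RefSeq promoter windows of build GRCm38.p6, 250 bases before to 50 bases after the gene start, were found for 70 of the 84 members. A gene was counted when any of its windows held the motif. The NRF1 motif (GCGCA, then any base, then GCGC), searched on both strands as were the others, was in 22.9% of these members. The share was 9.36% of the 9883 tested genes with a window and 5.19% of all 27025 genes with a window. The ETS motif CCGGAAG was in 25.7% of members, 16.4% of tested genes and 9.93% of all genes with a window, and the YY1 motif AAGATGGC in 12.9%, 4.39% and 3.19%. At least 1 of the 3 was in 53.8% of the 13 members with a window that fell in wild-type and in 54.4% of the 57 other members. Taken one by one, the ETS motif was in 38.5% of the former and 22.8% of the latter, NRF1 in 15.4% and 24.6%, and YY1 in 15.4% and 12.3%. Among the 13 members that fell, these shares rest on 5, 2 and 2 genes. Each motif was counted by itself, and a match is a description of these letters, not of binding.

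To show where these matches lie, the bases just before the start are given for the 5 members whose wild-type fall held under every omission and for Ndufb1, which rose in SUMO-KD, up to 120 bases or to where a neighbouring gene begins. Each is written 5′ to 3′ on the gene's strand, with any ETS match in capitals. The stretches are chr9:50603850-50603900 (minus strand) for Sdhd, chr10:80406822-80406941 (minus) for Uqcr11, chr1:58586334-58586396 (plus) for Ndufb3, chr10:80249329-80249448 (plus) for Ndufs7, chr17:78937071-78937134 (plus) for Ndufaf7 and chr12:101975739-101975758 (minus) for Ndufb1.
Sdhd: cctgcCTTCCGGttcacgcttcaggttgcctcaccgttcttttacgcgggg
Uqcr11: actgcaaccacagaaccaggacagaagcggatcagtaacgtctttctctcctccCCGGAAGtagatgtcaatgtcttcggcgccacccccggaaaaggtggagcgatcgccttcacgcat
Ndufb3: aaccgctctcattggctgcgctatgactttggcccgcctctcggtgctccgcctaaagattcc
Ndufs7: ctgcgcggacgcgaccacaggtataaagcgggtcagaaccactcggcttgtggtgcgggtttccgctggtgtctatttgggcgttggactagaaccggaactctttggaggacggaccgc
Ndufaf7: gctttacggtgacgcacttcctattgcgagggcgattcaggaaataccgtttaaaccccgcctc
Ndufb1: tggcgcggcgagtggcagct

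The Sdhd match lay at positions -46 to -40 from the gene start, on the opposite strand, and the Uqcr11 match at -66 to -60. Sdhd also had an NRF1 match at -79 to -70, beyond the printed bases, and Ndufs7 a YY1 match at 25 to 32 after its start. Ndufb3, Ndufaf7 and Ndufb1 had none of the 3 in their windows. For 4 of the 6, another gene begins within 120 bases of the start: Timm8b beside Sdhd, Fam126b beside Ndufb3, Cebpz beside Ndufaf7 and Cpsf2 beside Ndufb1. The measured neighbours did not share the calls: in wild-type ischemia Timm8b, an import chaperone, differed by -0.20 (limma adjusted p = 0.168), Fam126b by 0.24 (limma adjusted p = 0.21) and Cpsf2 by 0.04 (limma adjusted p = 0.788).

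Other mitochondrial genes were read from 5 lists in the same fit. Among 28 measured assembly factors and electron carriers of the chain, 6 fell in wild-type and 6 in SUMO-KD, and none rose (all genes called lower, 8.88% and 4.62%), with list medians of -0.13 in both genotypes. Coa6, a copper-handling assembly factor of complex IV, fell from 1213 ± 60.2 to 756 ± 24.4 in wild-type (SD, n = 3 arrays; log2 change -0.66, limma adjusted p = 0.000169) and by 0.34 on the log2 scale in SUMO-KD (limma adjusted p = 0.0138). Sdhaf4 and Sdhaf2, assembly factors of complex II, changed by -0.72 and -0.47 in wild-type and by -0.55 and -0.70 in SUMO-KD, all called. Higd2a, a factor for complex IV and its supercomplexes, changed by -0.58 and -0.42, and Coa3, an early complex IV assembly factor, by -0.53 and -0.44, all called. The remaining calls, named after their values were seen, were Lrpprc in wild-type (-0.28) and Bcs1l in SUMO-KD (-0.37). The list had 4 to 7 falls in wild-type under omission of 1 array, with 4 without ischemia replicate 1 or 2, and 1 to 6 in SUMO-KD, with 1 without sham replicate 1 or ischemia replicate 3.

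The citric acid cycle list had 1 called fall among 17 genes in wild-type (all genes called lower, 8.88%), Pdhb of pyruvate dehydrogenase (-0.37, limma adjusted p = 0.0108). Limma called none of them in SUMO-KD, where 4.62% of all genes were called lower, and 6 had an unadjusted p under 0.05. The list had a wild-type median of -0.18. Its wild-type count was 0 with averaged probe sets, where Pdhb differed by -0.18 (limma adjusted p = 0.136). The count was 2 after quantile normalization or without probe sets marked as shared (12 genes measured), 3 with an offset of 64 and 5 with trended and robust variances. Among 18 regulators of mitochondrial biogenesis and mitochondrial DNA, 3 fell in both genotypes (all genes called lower, 8.88% and 4.62%). All 3 act on mitochondrial DNA. Polrmt, the mitochondrial RNA polymerase, went from 569 ± 46.2 to 318 ± 26.7 in wild-type (log2 change -0.78, limma adjusted p = 0.000511) and changed by -0.67 in SUMO-KD. Mterf3, a negative regulator of mitochondrial transcription, changed by -0.56 and -0.61, and Polg, the mitochondrial DNA polymerase, by -0.40 and -0.44. Without wild-type sham replicate 1 Polg had an adjusted p of 0.0509 in wild-type. Yy1 (0.49) and Ppargc1b (0.46), a coactivator of mitochondrial biogenesis, rose in wild-type (all genes called higher, 9.59%). Both are named here after their values were seen, and neither was called without wild-type sham replicate 1 or ischemia replicate 3.

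The import list had its largest changes in the upward direction, while its median was -0.03 in wild-type and 11 of its 18 genes were negative. In wild-type 4 of them were called higher and 2 lower (all genes, 9.59% and 8.88%), and in SUMO-KD 3 were called higher (all genes, 6.08%). The matrix chaperonin pair Hspd1 and Hspe1 rose from 3111 ± 311 to 6568 ± 1002 and from 2649 ± 229 to 5590 ± 620 in wild-type (log2 changes 1.06 and 1.07, limma adjusted p = 0.000687 and 0.000161), with changes of 0.93 and 0.99 in SUMO-KD. Timm8a1, a chaperone of the intermembrane space, changed by 0.87 and 0.96. These 3 were called in both genotypes under all 12 omissions. The other wild-type calls of this list, named after their values were seen, were Hspa9 (0.43), Timm9 (-0.44) and Tomm70a (-0.38, or 0.058 with averaged probe sets), and neither fall was called without sham replicate 3. Among 14 carriers and channels, Slc25a14 (-0.41) and Vdac2 (-0.26) fell in wild-type and Slc25a14 (-0.35) in SUMO-KD (all genes called lower, 8.88% and 4.62%). Vdac2 lost its call without any 1 of the 6 wild-type arrays, and Slc25a14 its SUMO-KD call under 4 omissions.

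**Figure D5:**
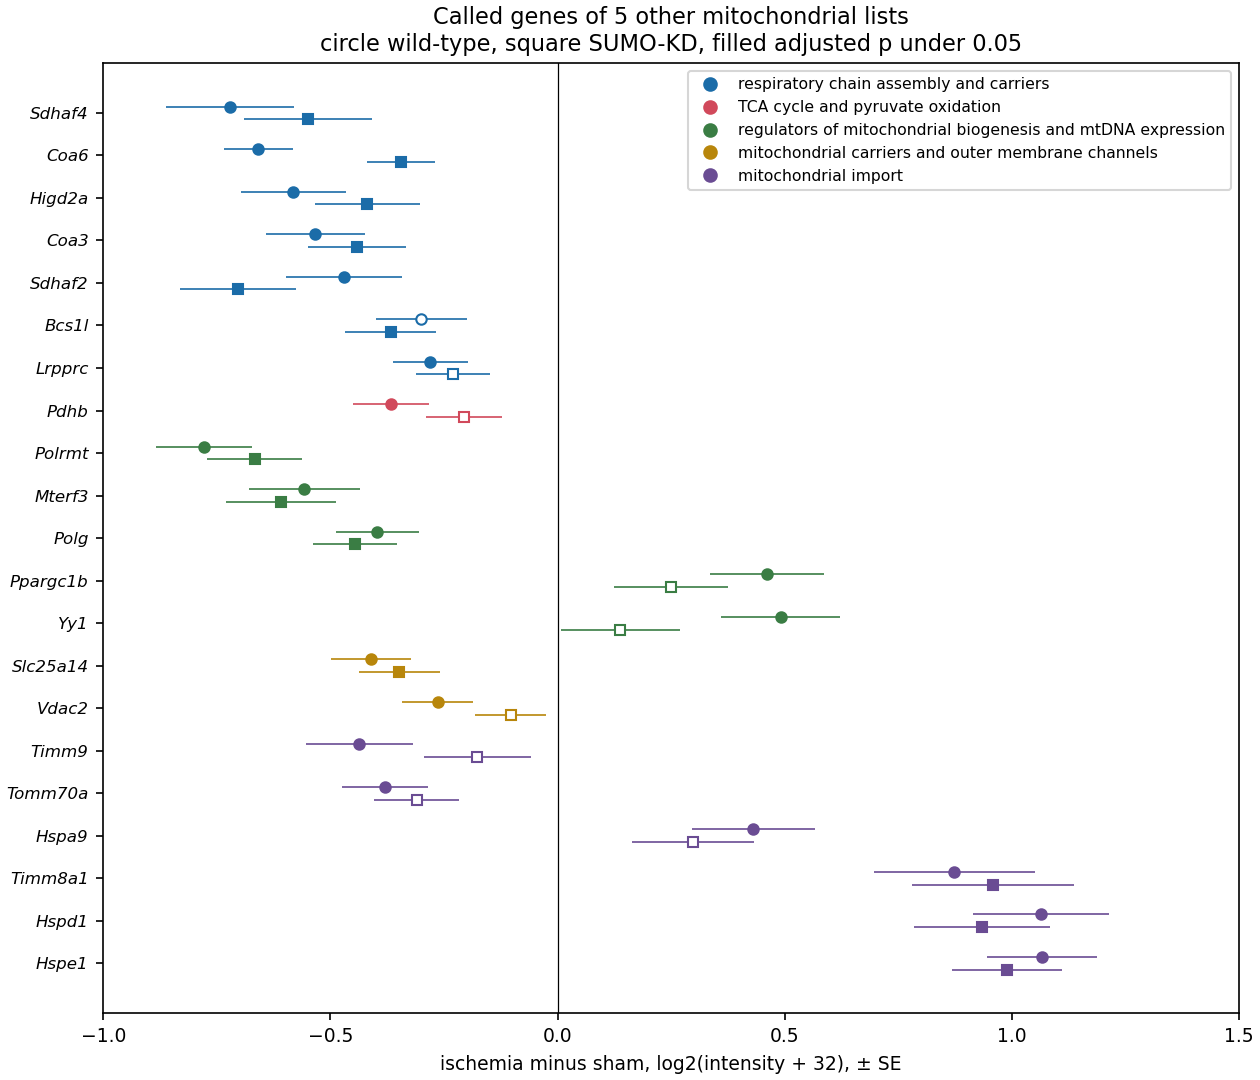
Ischemia minus sham (horizontal axis, log2 difference, bars are standard errors) for the genes of 5 other mitochondrial lists that were called in at least 1 genotype, coloured by list; circles are wild-type, squares SUMO-KD, filled symbols have a limma adjusted p under 0.05. Hspd1, Hspe1 and Timm8a1 lie near 1, while Polrmt, Sdhaf4 and Coa6 lie lowest in wild-type; the Tomm70a value, -0.38 here, is 0.058 when its probe sets are averaged.

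Markers of cell types moved beside the members, and their part in the members' changes was not tested. With ischemia in wild-type, 3 of 6 CA1 pyramidal markers were called lower (Wfs1, Pou3f1 and Lefty1), 3 of 8 interneuron markers, 3 of 7 microglia markers, 1 of 5 endothelial markers (Slco1a4) and none of 10 pericyte and mural or 6 oligodendrocyte markers (limma, 3 and 0 with an unadjusted p under 0.05). In SUMO-KD none of the 6 pyramidal markers was called by limma, 1 had an unadjusted p under 0.05, 3 of 7 microglia markers were lower, and so were Slco1a4 and 1 of 10 pericyte markers (Cspg4). Summed pericyte and mural markers were separate between sham and ischemia in both genotypes, at 4079 to 4228 against 3465 to 3679 in wild-type and 3445 to 4170 against 3217 to 3439 in SUMO-KD. In the mean response 5 of the 10 were lower. Summed endothelial markers were separate too, at 1825 to 2297 against 1198 to 1600 in wild-type and 1551 to 2060 against 1287 to 1360 in SUMO-KD. Single endothelial markers did not all share this direction. Their median log2 difference was -0.14 in wild-type, with 1 of 5 positive, and -0.006 in SUMO-KD, with 2 of 5 positive. The summed pyramidal markers in SUMO-KD sham, 4359 to 7096, overlapped those in wild-type ischemia, 4532 to 6943. Summed astrocyte markers were 17662 to 21652 in wild-type sham arrays and 18398 to 21459 after ischemia. In SUMO-KD they were 22030 to 23823 in sham arrays and 21202 to 23019 after ischemia. With ischemia limma called 1 of 7 astrocyte markers higher in wild-type and none in SUMO-KD, where 3 had an unadjusted p under 0.05. Summed dentate granule markers were 4478 to 6034 in wild-type sham arrays and 3773 to 4215 after ischemia. In SUMO-KD these sums were 6722 to 8409 in sham arrays and 5306 to 6036 after ischemia. Single dentate markers did not all share this direction. With ischemia in wild-type, 1 of 5 was called higher and 1 lower, and 2 of 5 were positive. In SUMO-KD 1 was called lower and none higher, and 1 of 5 was positive.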

How the data were processed

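The authors deposited 22690 probe sets on 12 arrays as linear intensities. Per the submitters' processing notes Partek 6.6 and RMA were used, with no role for either. The values were not on RMA's log2 scale: they spanned 0.0237 to 24136, and their trimmed mean (2% off each end) was 500.2 on every array. How they were made was not stated in these sources. No detection calls were used. With 3 arrays a group, precision is limited.

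Tests used log2(intensity + 32). Of 20393 probe sets with 1 gene symbol in the platform annotation, the brightest on average stood for its gene; members had 156 in all, and 45 members had several. A single limma 3.58.1 model (R 4.3.3; lmFit, eBayes; two-sided) held the 4 group means. The procedure was run on simulated data with noise drawn independently for each gene. Genes that move together, and shifts as small as most members' changes, were not simulated. The members and lists were chosen with earlier results of these data known. Named were members called in any comparison (up to 10 by smallest p in each), the 3 smallest interaction p, complex IV and c-ring paralogues, and up to 3 called genes of each other list by smallest p in each genotype; the remaining called wild-type members were added after their values were seen. Alternatives were other offsets, normalizations, probe-set choices, a dim filter, variance settings, a replicate block and omission of each array. Tests of single probe sets and the non-overlap counts after quantile normalization were chosen after seeing the data. Neither the labels nor the correlations given below show that replicate numbers pair the arrays, so they were not taken as pairs. A shared batch or day was not tested.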

Additional observations from a re-analysis of the deposited data

How the results depend on the processing

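The members' median change kept its sign in wild-type and SUMO-KD ischemia and after ischemia between genotypes under every alternative run, while between sham groups it lay from -0.049 to 0.031. Counts of called members moved more. In wild-type ischemia the count of 16 became 9 without probe sets marked as shared (fewer genes tested), 5 in a fit of the compared groups alone (fewer arrays), 26 with trended and robust variances, and 6 to 16 with 1 array left out. In SUMO-KD ischemia the count of 3 became 6 with an offset of 64, 5 with averaged probe sets, 5 without dim genes, 1 with the compared groups alone, 9 with trended and robust variances, and 0 to 5 with 1 array left out. The 1 member called between genotypes after ischemia became 0 without shared probe sets (63 members measured), with the compared groups alone and with 1 array left out (0 to 1). The 24 members called in the mean response became 14 without shared probe sets (63 members measured), and 14 to 30 with 1 array left out. Uqcrq in the mean response reversed to 0.042 with averaged probe sets and 0.064 without shared probe sets, and Tomm70a in wild-type to 0.058 with averaged probe sets; the cause was not tested beyond the other Uqcrq probe sets being dim. Among the pathway lists, the 6 assembly and carrier genes lower in SUMO-KD became 1 with the compared groups alone. The 2 import genes lower in wild-type became 0 there and with averaged probe sets, and the 2 lower carriers and channels became 1 there and after quantile normalization. Of the regulators, 0 higher and 3 lower in SUMO-KD became 2 and 2 with averaged probe sets.

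The replicate number as a block gave 14 called members in wild-type ischemia, 4 in SUMO-KD ischemia and 26 in the mean response; deviations of same-numbered arrays correlated at 0.073, -0.054 and -0.12 between wild-type sham and ischemia at 0.20, 0.087 and 0.031 in SUMO-KD, at 0.0055, 0.11 and 0.024 between the sham groups and at 0.25, -0.17 and 0.032 between the ischemia groups, not all above 0.1, so the numbers were not taken as pairs. Of 729 results of called genes under settings other than single omissions, 79 were no longer called, and of 924 under single omissions, 207. Dim members such as Cox4i2, Cox7a1 and Cox8b have little signal, which limits their values.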

Other observations

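Some genes of complex I are measured only, or also, by probe sets that list several genes, and these were left out above because their signal cannot be assigned to 1 gene. There were 8 such probe sets. Both probe sets for the Ndufb4 family, accessory subunits of complex I, differed by -0.18 and -0.22 with ischemia in wild-type and by -0.21 and -0.19 in SUMO-KD. The probe set for Ndufa11 and Ndufa11b differed by -0.17 and -0.19, and that for Ndufs6 and Ndufs6b by -0.11 and -0.18. When each probe set was tested by itself, the smallest limma adjusted p among the 8 was 0.262 for wild-type ischemia and 0.287 for SUMO-KD ischemia.

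Of the 15 members that fell in wild-type ischemia, 7 had more than 1 probe set. Their 13 other probe sets were negative in 11 cases, 3 were called lower when tested one by one (for Cox6b1, Cox7a2 and Ndufs7), and 3 had group means under 100 throughout.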
